A study of Caenorhabditis elegans with 2 samples.

Results

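The miRNAs mir-75, mir-79 and mir-244 of Caenorhabditis elegans form a small family that is set beside the miR-9 family of flies and vertebrates. Their members here are 5 of the 51569 clusters of overlapping small RNA reads in the deposited list, namely those on chromosomes whose sense annotation gives one of the 3 miRNAs by its exact name. The series describes a pair of libraries, each from whole worms of the strain fem-1: a monophosphate library, which captures small RNAs with a 5′ monophosphate, and a polyphosphatase library, in which the enzyme was added so that triphosphate-bearing secondary siRNAs could be captured too. The values below are of the monophosphate library alone, and the polyphosphatase library was not analysed here. fem-1 is a gene needed for sperm in the hermaphrodite germ line, and strains named for it are used as a source of worms without sperm; the sources used here do not state the allele, the temperature or the age of the worms. With 1 library there was no replicate and no test between conditions, and values in brackets are exact 95% intervals (Poisson for counts, Clopper-Pearson for shares). Such intervals, like the upper limits given for 0 reads, reflect counting error alone, because reads without molecular identifiers may be copies of one molecule.

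An animal miRNA is cut from a hairpin by Drosha and then by Dicer, which leaves a short duplex of the hairpin's 5′ and 3′ arms with 5′ monophosphates. One strand of the duplex is kept by an Argonaute, ALG-1 or ALG-2 in worms, and finds its target messages mainly through the seed, a short stretch near its 5′ end, while the other strand is mostly degraded. The mature products of mir-75 and mir-79 come from the 3′ arm and share a seed with the 3′ arm product of the fly and vertebrate mir-9 hairpins. The mature product of mir-244 comes from the 5′ arm and has the seed of the other strand, miR-9 itself. miR-79 is known in worms to act in the epidermis, where it restrains sqv-5 and sqv-7, genes for the sugar chains of proteoglycans, and thereby affects the migration of the HSN neurons. These seeds, arms and roles are background and were not read from the deposited list, which holds no sequences.

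The list held 1417144 reads, of which 1412353 in 49661 clusters lay on chromosomes, and 764909 of these (54.2%) were in the 237 clusters assigned to 154 miRNAs. Sense reads in exons were found for 34.3% of 19983 protein-coding genes, with a median of 0 per gene. All 6 vit genes, the yolk protein genes whose messages are made in the intestine, had such reads, 10066 in all. The 5 oocyte and germline genes rme-2, oma-1, oma-2, puf-5 and glp-1 also had them, 15 to 85 per gene and 246 in all. Of 13 sperm marker genes 3 (23.1%) had a sense read, 1 read each, and all 8 msp genes of that list were at 0, although reads that fit several copies of such genes equally well may be missing. Sense reads were found for 3 of 6 epidermis markers (31 reads, of which col-19 held 20 and lin-26 held 10), 3 of 4 neuron markers (13 reads) and 3 of 3 intestine markers (5 reads). Because read length was selected, these totals describe the deposited list, and the depth of the library is unknown. In whole worms, fewer cells that make a miRNA and less of it per cell cannot be told apart.

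Reads of the family were dominated by mir-244, followed by mir-79 and mir-75. mir-244 had 636 reads (587.5 to 687.4), all in 1 cluster. mir-79 had 203 reads (176 to 233) in 2 clusters, and mir-75 had 76 reads (59.9 to 95.1), also in 2 clusters. The 3 intervals did not overlap, so the order mir-244, mir-79, mir-75 was larger than counting error. The ratio of mir-244 to mir-79 was 3.13 (2.67 to 3.69), that of mir-244 to mir-75 was 8.37 (6.59 to 10.8), and that of mir-79 to mir-75 was 2.67 (2.04 to 3.52). Together they held 915 reads, 0.120% of miRNA reads (0.112 to 0.128), of which mir-244 was 69.5% (66.4 to 72.5), mir-79 22.2% (19.5 to 25.0) and mir-75 8.31% (6.60 to 10.3). Ligation and amplification differ between miRNA sequences, so a ratio of reads between 2 miRNAs is not a ratio of molecules.

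mir-75 and mir-79 had reads from both arms of the hairpin, mostly from the 3′ arm, and mir-244 from a single place. mir-75 lay on the plus strand of chromosome X, with a 5′ arm cluster at 2372470 to 2372491 and a 3′ arm cluster at 2372508 to 2372529. The 3′ cluster held 67 reads (51.9 to 85.1) and the 5′ cluster 9 reads (4.12 to 17.1). mir-79 lay on the plus strand of chromosome I, with a 5′ arm cluster at 9332954 to 9332977 and a 3′ arm cluster at 9332997 to 9333019. Its 3′ cluster held 199 reads (172 to 229) and its 5′ cluster 4 reads (1.09 to 10.2). mir-244 lay on the minus strand of chromosome I at 4684377 to 4684400, and no other cluster on that strand began within 150 nt of it. With 3 reads taken as the most that a count of 0 allows, an unseen second arm of mir-244 has a share of up to 0.472%. This is a fixed limit and not an exact interval. Positions are those of the deposited list, and the sources used here name no genome build for it. The list annotates all 5 clusters as non-coding RNA alone, with no coding gene, intron or exon of a coding transcript on either strand. The share of other miRNA clusters annotated in this way is not given.

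**Figure D1:**
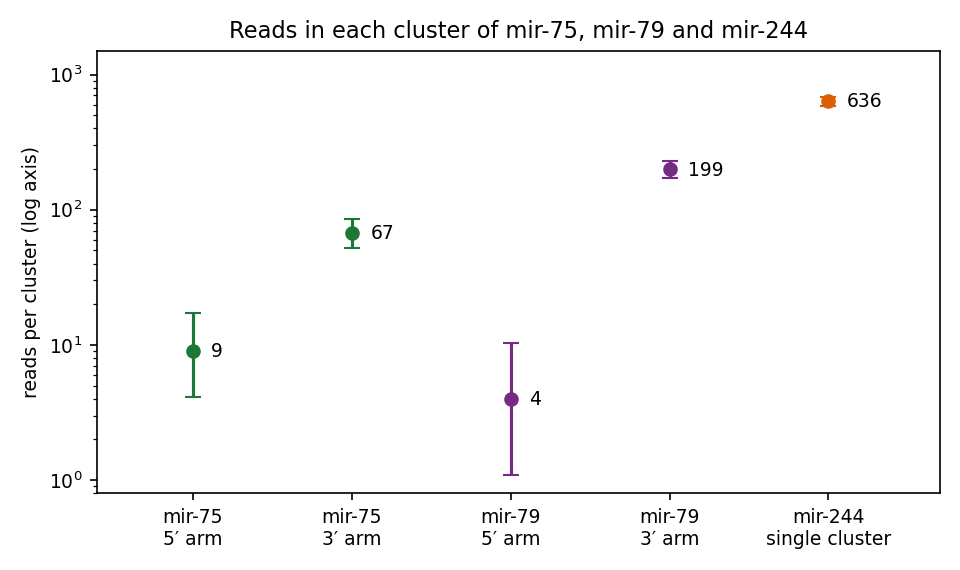
Reads in each of the 5 clusters on a log axis, with exact 95% Poisson intervals as bars. For mir-75 (67 and 9 reads) and mir-79 (199 and 4 reads) the 3′ arm cluster lies above the 5′ arm cluster with no overlap of the bars, and mir-244 has a single cluster of 636 reads.

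By reads, the leading arm held a larger share in mir-79 than in mir-75, with minor arms of 4 and 9 reads. By distinct sequences the shares were closer, at 72.7% in mir-79 and 66.7% in mir-75. The 3′ arm took 98.0% of mir-79 reads (95.03 to 99.46) and 88.2% of mir-75 reads (78.71 to 94.44), and these 2 intervals did not overlap. On the 3′ arm, the strand with the shared seed, mir-79 had 2.97 times the reads of mir-75 (2.24 to 3.98). On the 5′ arm the ratio of mir-79 to mir-75 was 0.444 with an interval from 0.100 to 1.59, so at this depth no difference between the 2 minor strands was detectable. mir-244 exceeded the 5′ clusters of mir-79 and mir-75, which come from the same side of the hairpin if mir-244 is placed on the 5′ arm as the background has it, by ratios of 159 (61.8 to 585) and 70.7 (37.0 to 155). On that placement, 649 of the 915 reads (70.9%, 67.9 to 73.9) came from 5′ arms and 266 (29.1%, 26.1 to 32.1) from 3′ arms, and 13 of the 649 were minor strands of mir-75 and mir-79.

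Both values lie within the range of other miRNAs. Among 49 other miRNAs with at least 50 reads and clusters on both arms, the median share on the leading arm was 99.5%, the 3′ arm led in 28 and the 5′ arm in 21. The share was lower than that of mir-75 in 8 of the 49 and lower than that of mir-79 in 17. The minor-strand clusters themselves were small but not of a single sequence, with 3 distinct sequences each for mir-75 and mir-79. The sequence named markov was taken, from its span of 99.9 Mb, as a measure of chance placement, a reading that was not tested. It held 19.1 clusters per Mb, of which 1.73% had at least 3 distinct sequences and 6.45% at least 4 reads. The same shares of clusters on chromosomes are not given, so no conclusion on the minor strands is drawn from them.

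**Figure D2:**
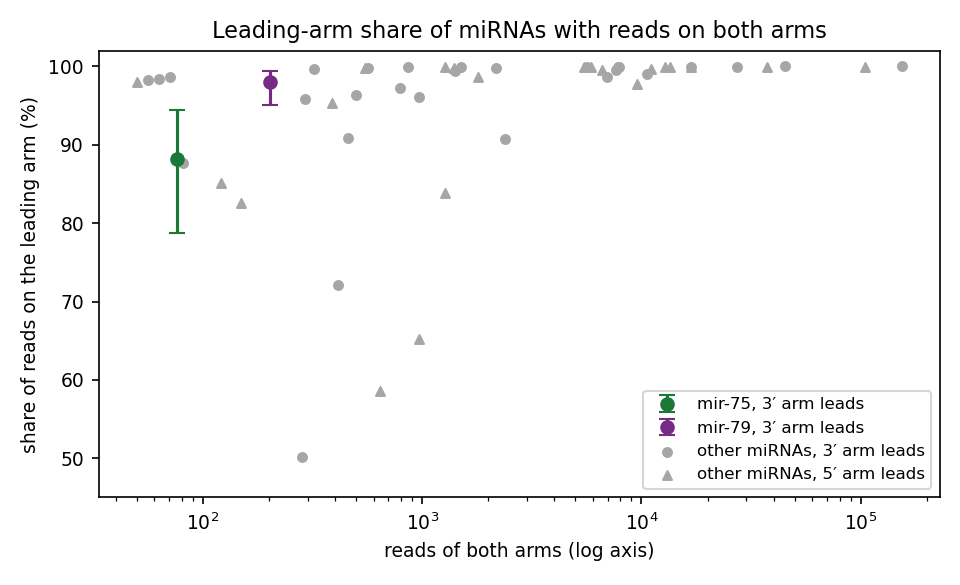
Share of reads on the leading arm against the reads of both arms (log axis) for 51 miRNAs with at least 50 reads, with exact 95% intervals for mir-75 and mir-79; circles mark miRNAs led by the 3′ arm and triangles those led by the 5′ arm. mir-75 at 88.2% lies below most of the others and mir-79 at 98.0% nearer to their median of 99.5%; mir-244 has no second arm and is not drawn.

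The locus names in the list mark the leading strand in each hairpin. T24D8.8 was named on the 3′ cluster of mir-75, C12C8.4 on the 3′ cluster of mir-79 and T04D1.5 on the cluster of mir-244, and the RefSeq gene table pairs these 3 locus names with the same 3 miRNAs. The 5′ clusters of mir-75 and mir-79 carried the hairpin's name without a locus name. Of the 49 other miRNAs, the exon annotation that goes with a locus name was on the leading arm alone in 46, on both arms in 1 and on the other arm alone in 2.

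The distance between arm clusters approximates the loop side of each hairpin, as it is measured between the outermost ends of reads. It was 16 nt between the clusters of mir-75 and 19 nt between those of mir-79, against a median of 17 nt (11 to 52) in the 49 other miRNAs. From the outer end of one arm to that of the other, mir-75 covered 60 nt and mir-79 covered 66 nt, against a median of 64 nt (59 to 103). mir-75 was among the shortest, with 1 of the 49 shorter, whereas 35 of the 49 were shorter than mir-79. Clusters with more reads have more chance to hold a stray longer one, so this is not an order of hairpin sizes.

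In the order of reads mir-79 and mir-75 stood near the middle of the list, and mir-244 stood higher. mir-244 was at rank 47 of 154, mir-79 at rank 65 and mir-75 at rank 83, with a median of 113.5 reads per miRNA. The miRNAs next to mir-244 were mir-86 (755 reads), mir-46 (735) and mir-34 (644) above it and mir-59 (567), mir-50 (548) and mir-53 (518) below it. Of these 6, the intervals of mir-86 and mir-53 did not overlap that of mir-244. mir-79 had mir-239b (218), mir-42 (216) and mir-74 (211) above it and mir-793 (200), mir-355 (188) and mir-249 (174) below it. mir-75 had mir-1022 (89), mir-2209a (86) and mir-231 (81) above it and mir-44 (73), mir-254 (71) and mir-359 (63) below it. The intervals of all 12 neighbours of mir-79 and mir-75 overlapped those of the miRNA they stand next to, so their places in the order are not separated by counting error.

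**Figure D3:**
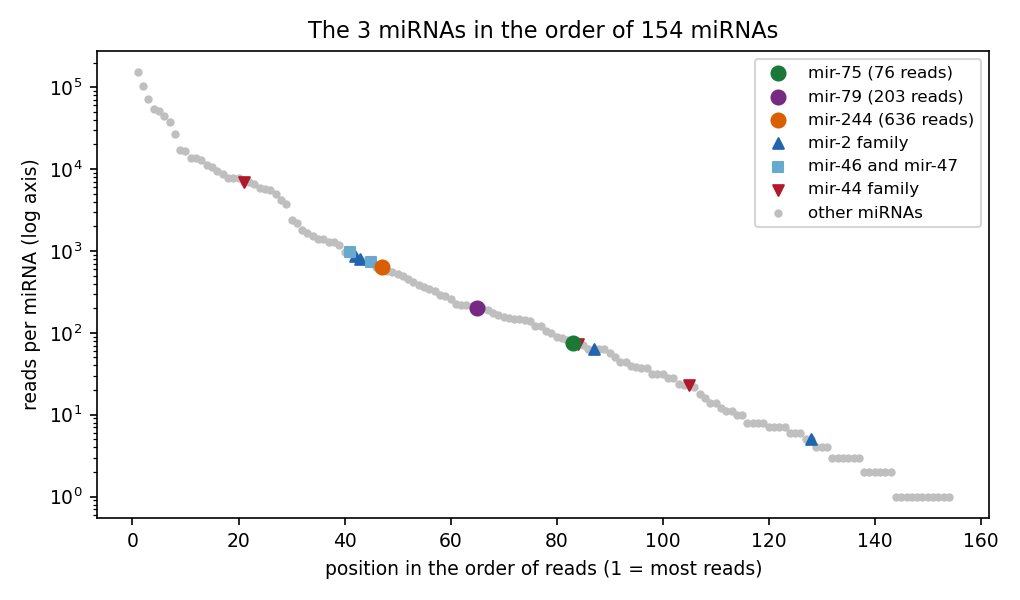
Reads per miRNA on a log axis against the position in the order of reads for all miRNAs with a read, with mir-75, mir-79, mir-244 and the members of 3 other families as coloured points. The 3 miRNAs stand at ranks 83, 65 and 47, and ranks of tied miRNAs are drawn one after the other.

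Other small miRNA families are given for comparison with the division of reads between mir-244, mir-79 and mir-75. The mir-2 family held 1720 reads (0.225%), with mir-2 at 857, mir-250 at 795, mir-43 at 63 and mir-797 at 5. mir-46 and mir-47 held 735 and 969 reads (1704 together, 0.223%). The mir-44 family held 7128 reads (0.932%), of which mir-61 had 7032, mir-44 73 and mir-45 23, and mir-247 was at 0. All 4 members of the mir-2 family were led by the 3′ arm, with leading-arm shares of 99.9% in mir-2, 98.4% in mir-43, 97.2% in mir-250 and 80.0% in mir-797, the last from 5 reads. These families were chosen with their totals known, so the totals are a description.

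Reads of the 3 miRNAs could be placed on a single locus. The uniqueness value of a cluster is the mean over its reads rounded down, which held on all 51569 lines, and in clusters of 1 read it never exceeded 2 points per nt of width. It equalled 2 points per nt in 93.2% of the 35251 clusters of 1 read without an edit, and lay 8 points below that in 99.0% of the 3168 with an edit. The highest value that its width allows was 44 for both mir-75 clusters, which had 42 on the 5′ arm and 43 on the 3′ arm. For mir-79 the values were 45 of 48 on the 5′ arm and 43 of 46 on the 3′ arm, and for mir-244 47 of 48. At their leading clusters, mir-46 and mir-47 had 9 and 13 and mir-44 and mir-45 had 10 and 9. The other members with reads of the families given above were higher, at 45 in mir-2 and mir-43, 41 in mir-250 and mir-61 and 46 in mir-797. High values were thus common, with a median of 43 in the 67 other miRNAs whose read lengths are compared below. Of these, 18 had a lower value than the leading clusters of mir-75 and mir-79, and 65 a lower one than mir-244. The value rises by 2 points per nt, so these counts also follow read length and do not rank placement on a single locus. For example, mir-49 with 43 at 22 nt and mir-355 with 41 at 21 nt are among those below mir-244. No cluster of mir-75, mir-79 or mir-244 named a second miRNA, and the share of other miRNA clusters that do is not given.

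The same value bounds the length of the reads, since a read is at least as long as its uniqueness divided by 2 and no longer than its cluster. For mir-244 the mean lay between 23.92 and 24 nt. At most 48 of its 636 reads were shorter than the cluster, so at least 92.5% began and ended at the same pair of positions. The 3′ cluster of mir-75 had a mean between 21.78 and 22 nt, and at least 77.6% of its 67 reads spanned the whole cluster. The 3′ cluster of mir-79 was 23 nt wide with a mean of at least 21.91 nt, which does not limit how many reads were shorter. The 5′ clusters had means of at least 21 nt in mir-75 (22 nt wide) and 22.75 nt in mir-79 (24 nt wide), from 9 and 4 reads.

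Among the leading clusters of the family, that of mir-244 had the highest bound on mean read length. Of 67 other miRNAs with at least 50 reads in a leading cluster of 18 to 26 nt, 66 had a lower bound on mean read length than mir-244, 31 had a lower one than mir-79 and 23 a lower one than mir-75. Their median bound was 21.9 nt and their median width 24 nt. A width of 24 nt was shared by 15 of the others, and it exceeded their bound by more than in mir-244 in each case, since 2 of the 67 had a smaller gap and neither was 24 nt wide. A bound on the share of full-width reads above 0 was reached by 15 of the 67, and 2 of these, mir-49 (94.0%) and mir-355 (94.7%), were at least as high as mir-244. Bounds fall where reads fit a second locus nearly as well, and clusters with more reads have more chance to hold a stray longer one, so this order is a description.

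**Figure D4:**
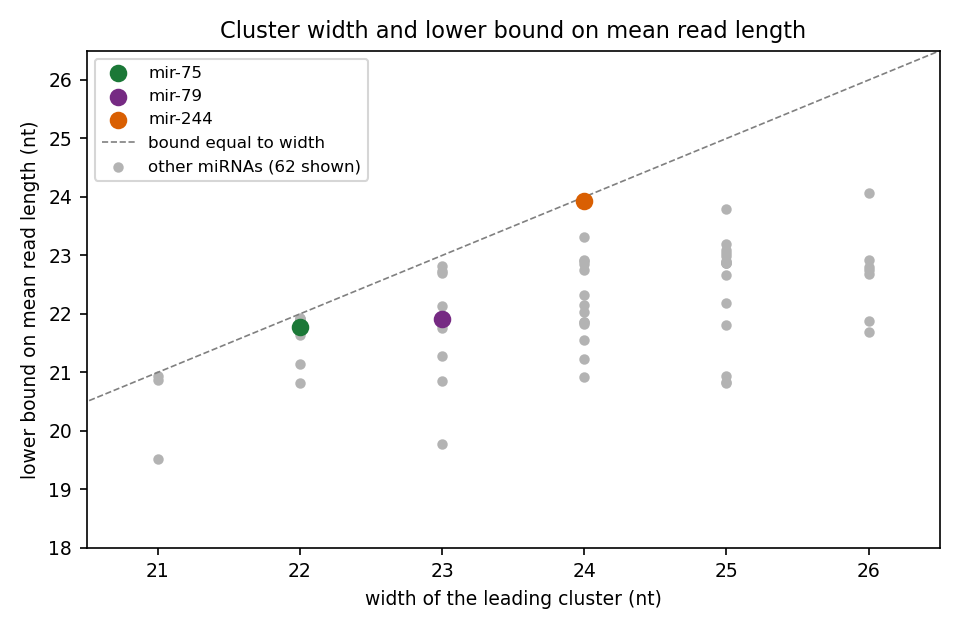
Lower bound on mean read length against the width of the leading cluster, both in nt, for mir-75, mir-79, mir-244 and 62 other miRNAs with at least 50 reads; 5 others with a bound below 18 nt are not drawn. The dashed line marks a bound equal to the width: mir-244 lies just under it at 24 nt, mir-75 at 22 nt, and mir-79 about 1.09 nt below it at 23 nt.

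Few distinct sequences made up the reads. mir-244 had 15 distinct sequences in 636 reads, mir-79 had 8 in 199 reads of the 3′ arm, and mir-75 had 6 in 67 reads of the 3′ arm. This corresponds to 42.4 reads per sequence in mir-244, 24.9 in the 3′ cluster of mir-79 and 11.2 in that of mir-75. The number per 100 reads, over both arms, was 2.36 in mir-244, 5.42 in mir-79 and 11.8 in mir-75, and it tends to fall as reads accumulate. Set beside the miRNAs within 2-fold of each in reads, 3 of 19 had fewer distinct sequences per 100 reads than mir-244, 11 of 24 fewer than mir-79 and 17 of 23 fewer than mir-75.

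Edits, meaning reads that differ from the genome, were rare. mir-244 had 6 edited reads of 636 (0.943%, 0.347 to 2.04), 2 of them listed as conversion events, and mir-79 had 2 of 203 (0.985%, 0.120 to 3.51), both on the 3′ arm. mir-75 had 0 of 76 (0%, 0 to 4.74). The 3 together had 8 edited reads in 915 (0.874%, 0.378 to 1.72), against 1.24% (1.22 to 1.27) in the pooled reads of 77 other miRNAs with at least 100 reads. The median of those 77 was 0.955%, and they ranged from 0% to 4.76%. At this depth no difference in edited reads between the 3 miRNAs, or between them and the others, was detectable.

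Near the 3 loci, clusters other than those of miRNAs held few reads each. Their number was not compared with that around other loci. No cluster in the list was antisense to any of the 3 hairpins, and how many other miRNAs have an antisense cluster is not given. Within 5 kb of mir-244 there were 8 other clusters with 10 reads, and within 5 kb of mir-79 there were 11 with 17 reads, none of them over 3 reads. Part of those near mir-79 belong to lin-41, a heterochronic gene and classic target of let-7, which lies on the opposite strand with its nearest exon cluster 3195 nt away. lin-41 had 26 sense reads in 18 clusters. Within 5 kb of mir-75, 4 clusters that name no miRNA held 5 reads.

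Upstream of mir-75 on the same strand lie mir-73 and mir-74, which belong to the mir-72 family and do not share the seed of mir-75. mir-73 had 5644 reads (rank 25), 5637 of them at X 2368819 to 2368844 on the 3′ arm and 7 on the 5′ arm, 3625 nt from mir-75. mir-74 had 211 reads (rank 64) in 1 cluster of 64 nt, wide enough to hold both arms, 3350 nt from mir-75. mir-73 thus had 74.3 times (59.2 to 94.4) and mir-74 2.78 times (2.13 to 3.66) the reads of mir-75. Whether the 3 are cut from 1 transcript was not tested.

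Sense reads in exons were also found for genes of the pathway on which miR-79 is known to act. The genes for the synthesis of chondroitin and heparan sulfate, to which sqv-5 and sqv-7 belong, had sense exon reads in 16 of 18 cases (88.9%), 77 reads in all and a median of 2.5 per gene, against the 34.3% of all protein-coding genes given above. sqv-5, the chondroitin synthase, had 17 sense reads in 16 clusters, and sqv-7, a transporter of nucleotide sugars, had 2. sqv-1, which makes UDP-xylose, had 14, mig-22, a partner of the synthase in chondroitin polymerisation, had 9, and sqv-6, the xylosyltransferase that starts the chain, had 6 like the epimerase gene hse-5. The other 10 genes with reads, sqv-2, sqv-3, sqv-4, sqv-8, rib-1, rib-2, hst-1, hst-2, hst-3.2 and pst-1, had 1 to 4 each, and hst-3.1 and hst-6 were at 0. Antisense reads were found for 8 of the 18 genes (44.4%, against 15.9% of all), 10 in all. Of 6 proteoglycan core genes, the perlecan gene unc-52 had 24 sense reads, cle-1 had 2, the syndecan gene sdn-1 had 1, and gpn-1, lon-2 and agr-1 were at 0. Longer and more abundant messages give more fragments, and read numbers were not set per length, so these counts are not levels of expression.

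All 14 genes of a list drawn up for the miRNA pathway had sense exon reads, 247 in all with a median of 11 per gene. This is against 34.3% of all protein-coding genes and a median of 0. Whether each gene of the list, rde-4 and xpo-3 included, acts on miRNAs was not tested. The helicase gene cgh-1 held 106 of them, followed by rde-4, a double-stranded RNA binding partner of Dicer, with 25. dcr-1, which encodes Dicer, had 15, drsh-1, the Drosha gene, 11, its partner pash-1 7, and the Argonaute genes alg-1 and alg-2 had 6 and 11. ain-1 and ain-2, whose proteins join the Argonautes to translational repression, had 5 and 15. xpo-3 had 12 and nhl-2 had 13, and the exonuclease genes xrn-1 and xrn-2 had 8 and 11 and dcs-1 2. Antisense reads fell on 7 of the 14 (50%, against 15.9% of all protein-coding genes), 22 in all, led by dcr-1 with 6 and cgh-1 with 5. Message length and abundance were not matched to those of all genes, and the lists were chosen with earlier results of these data known. The contrasts with all genes, here and for the chondroitin and heparan sulfate genes, are therefore descriptions.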

How the data were processed

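Small RNAs of whole worms were sequenced with an Illumina small RNA protocol after TRIZOL extraction, per the labels' protocols, and Bowtie2 2.1.0 is named in the submitters' processing notes. The authors deposited 1 list of read clusters, taken as the monophosphate library's from its name, which shortens that title, and each line states 1 supporting library. Its read counts, distinct sequences and edits are raw counts per cluster as the authors deposited them, without normalization; the deposited score column, an entropy, was not used. The sources used here state no genome build, annotation release, trimming or filter; the name of the list states lengths of 18 to 26 nt.

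miRNA clusters were those on chromosomes that name a miRNA in sense and carry no rRNA, tRNA, snRNA or snoRNA annotation. A cluster naming 2 miRNAs counted for both. Arms were paired within 150 nt on one strand among clusters of at most 30 nt. Intervals were computed with SciPy 1.17.1 and tables with pandas 2.3.3 in Python 3.11.15. The read length bound was added after the data were examined. Its code, the arm pairing and the intervals were tested on simulated data. The simulated reads followed the same rule for uniqueness and none fitted a second locus. That test therefore checked the code of the bound and not the rule. Gene lists were read in coding exons, with all genes matched in the WBcel235 RefSeq gene table, used for names and biotypes only. Named miRNAs were the 3 members, their 3 neighbours on each side in the order of reads, and 3 other families; list genes with a read were named, and the miRNAs next to mir-75 and lin-41 were chosen after their values were seen, as were mir-49 and mir-355. The members and lists were chosen with earlier results of these data known. Sequences are not printed.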

Additional observations from a re-analysis of the deposited data

How the results depend on the processing

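No paired analysis was possible because 1 library was analysed. Of 38 alternative values 25 stayed within the interval set for the value reported and 13 moved outside it. These intervals are of unlike kinds. For the percent of other miRNAs with fewer distinct sequences per 100 reads, or with a lower edited percent, they treat the 77 miRNAs as independent draws. For distinct sequences per 100 reads they treat distinct sequences as independent draws. Neither kind measures the counting error of reads, so the tally is a description. Read counts per cluster could not change with clusters of 18 to 26 nt only or with a uniqueness value of at least 20. Every cluster of the 3 miRNAs is 22 to 24 nt wide with a uniqueness of 42 to 47. The arm shares in clusters of 18 to 26 nt, and the values of mir-244 in its leading cluster alone, were likewise fixed in advance. So were the edited percent of mir-75 in its leading cluster and its place within 2-fold, as mir-75 had 0 edited reads. None of the 3 miRNAs has a cluster on the sequence named markov, so including it could not add to their reads, and the share was unchanged. All of these are among the 25 and do not measure robustness. The share of miRNA reads held by the 3 miRNAs was 0.174% in clusters of 18 to 26 nt, which hold 68.9% of miRNA reads. It was 0.493% without the 10 miRNAs with the most reads, and 0.954% by distinct sequences. Taking every cluster that names a miRNA, or a uniqueness of at least 20, left it within its interval. By distinct sequences the leading-arm share was 66.7% in mir-75 and 72.7% in mir-79, and the rank was 73 for mir-75 and 56 for mir-244. In clusters of 18 to 26 nt the rank was 66 for mir-75, 49 for mir-79 and 35 for mir-244, among 140 miRNAs. The percent of other miRNAs with fewer distinct sequences per 100 reads was 98.7% for mir-75, 83.1% for mir-79 and 49.4% for mir-244 among 77 miRNAs with at least 100 reads, and 73.9%, 45.8% and 15.8% among those within 2-fold in reads. Each alternative counts other clusters, sequences or miRNAs, and why the values moved was not tested. Depth limits the minor arms most, with 9 and 4 reads.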
